A study of Mus musculus with 7 samples.

Results

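Type I interferon-stimulated genes (ISGs) were examined in basal cells of the lactating mouse mammary gland, in controls and in mutants named for the laminin-binding integrin subunits α3 and α6. The list held 36 genes, chosen by symbol, and 35 of them had a row of their own among the 56440 gene models of the deposited table. The exception was Herc6, which in mouse encodes the main ligase for the protein tag ISG15. It was listed in 1 combined feature with a neighbouring transcript, at 27.1 to 82.6 in Ctrl and 47.5 to 121 in a3a6KO, and was left out of all counts. The 35 genes all passed the filter on low values, which asked for 10 or more in 3 or more libraries.

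Basal cells are the contractile myoepithelial layer around the milk-producing luminal cells. They were sorted by flow cytometry from fresh mammary tissue on day 2 of lactation, and RNA was sequenced from 4 control libraries (genotype label Ctrl, titled Ctrl and Blgneg) and 3 mutant libraries (genotype label a3a6KO, titled DKO and Blgpos). The submitters describe them as biological replicates. Blg is understood here as a Cre under the beta-lactoglobulin promoter, which is active in luminal secretory cells, so the sorted basal cells are neighbours of the cells in which the deletion was meant. Blg status and genotype cannot be told apart, since every a3a6KO library and no Ctrl library carries it. The sources used here do not give strain, age or the alleles of the controls. In these basal cells the log2 fold changes (a3a6KO minus Ctrl) of the targeted transcripts were 0.07 (SE 0.21) for Itga3 and -0.10 (SE 0.15) for Itga6. Neither passed the threshold in limma, but no gene tested did, so the threshold cannot tell whether either changed. Values are read counts divided by a size factor for each library, called normalised counts below, and the libraries held 9368418 to 21548279 reads.

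Type I interferons are secreted proteins that signal through the receptor chains IFNAR1 and IFNAR2 and the kinases JAK1 and TYK2. STAT2 is phosphorylated and joins IRF9 in the complex ISGF3, which binds interferon-stimulated response elements (ISREs) in promoters and switches on a large set of antiviral genes. Many of these genes are also transcribed at a basal level without infection, and epithelial, endothelial and immune cells all express them.

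The response element is visible in the promoters of several of the genes. RefSeq windows (build GRCm38.p6) were found for 25 of the 35, and the 250 bases before the transcription start were searched on both strands for GAAANNGAAA, the core of the ISRE. This motif was present in 7 of the 25 genes, or 28.0%, and in 3.46% of all 27025 genes with such windows. The longer form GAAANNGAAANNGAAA, which contains 2 overlapping copies of the first, was present in 3 of the 25 and in 0.104% of all genes. A match is a description of the letters and was not shown to be a bound site. The 160 bases before the start are shown for 6 genes whose expression is described below, 5′ to 3′ on the strand of the gene, with each GAAANNGAAA match, or its reverse complement, in capitals.
Isg15 (chr4:156200819-156200978, minus strand): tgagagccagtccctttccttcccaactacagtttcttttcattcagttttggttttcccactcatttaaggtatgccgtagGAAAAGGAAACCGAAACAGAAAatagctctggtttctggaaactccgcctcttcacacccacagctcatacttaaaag
Ifit1 (chr19:34640729-34640888, plus strand): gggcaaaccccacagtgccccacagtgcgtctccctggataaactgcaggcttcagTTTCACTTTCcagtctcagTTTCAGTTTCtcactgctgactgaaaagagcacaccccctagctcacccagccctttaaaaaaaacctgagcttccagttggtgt
Ifit3 (chr19:34583369-34583528, plus strand): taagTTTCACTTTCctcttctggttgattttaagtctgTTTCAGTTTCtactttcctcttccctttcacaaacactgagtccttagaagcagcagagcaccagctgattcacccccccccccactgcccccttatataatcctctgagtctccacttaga
Oas1a (chr5:120907526-120907685, minus strand): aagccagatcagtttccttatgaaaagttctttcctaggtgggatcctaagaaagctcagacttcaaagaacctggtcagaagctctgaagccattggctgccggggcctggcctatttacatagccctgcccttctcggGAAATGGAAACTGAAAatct
Rsad2 (chr12:26456453-26456612, minus strand): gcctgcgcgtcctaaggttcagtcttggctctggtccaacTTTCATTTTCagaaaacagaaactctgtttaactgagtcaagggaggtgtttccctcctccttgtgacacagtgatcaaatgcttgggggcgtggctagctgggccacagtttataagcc
Bst2 (chr8:71537473-71537632, minus strand): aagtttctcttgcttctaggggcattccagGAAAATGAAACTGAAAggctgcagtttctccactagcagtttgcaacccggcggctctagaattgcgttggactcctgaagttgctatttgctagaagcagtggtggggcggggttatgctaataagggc
Isg15, Oas1a and Bst2 hold the longer form. The Isg15 matches begin 78, 72 and 66 bases before the start, and those of Oas1a begin 20 and 14 bases before it. Stat2 has its match 222 bases before the start, outside the stretch printed for the others.

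As a group the ISGs were higher on average in a3a6KO, and no single gene passed the test. In bulk RNA, fewer cells of a type and less RNA per cell cannot be told apart. The log2 fold change, a3a6KO minus Ctrl on the scale of log2(value + 1), was above 0 in 33 of the 35 genes, against 49.5% of the 16889 genes tested. The median was 0.46, against -0.0040 over all genes tested. Fold changes ran from -0.08 for Eif2ak2 to 1.38 for Oas2, and 17 of the 35 were above 0.5, which 10.2% of all genes were. In limma, with Benjamini-Hochberg adjustment over all genes, 0 of the 35 had an adjusted p under 0.05, and 0.0% of all genes did. The adjusted p of the 35 ran from 0.676 to 0.997. At an unadjusted p under 0.05 there were 6, all higher in a3a6KO (Irf7, Irf9, Isg15, Cmpk2, Bst2 and Ifi44), where 3.55% of all genes were higher and 6.32% differed in either direction. The count models on recovered reads called 0 of the 35 as well. DESeq2 had 6 and edgeR 5 at an unadjusted p under 0.05. Among the 16889 genes that passed the filter, as the 35 did, DESeq2 had 1060 and edgeR 1022 in either direction. Over all genes that each test gave a p, the shares were 4.03% in DESeq2 and 5.98% in edgeR, and 2.15% were higher in DESeq2. The DESeq2 shares are over 31469 genes, many of them below the filter, so they are not a like comparison for the 35. DESeq2 called 0.58% of the genes to which it gave an adjusted p, and edgeR 0.0%.

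**Figure D1:**
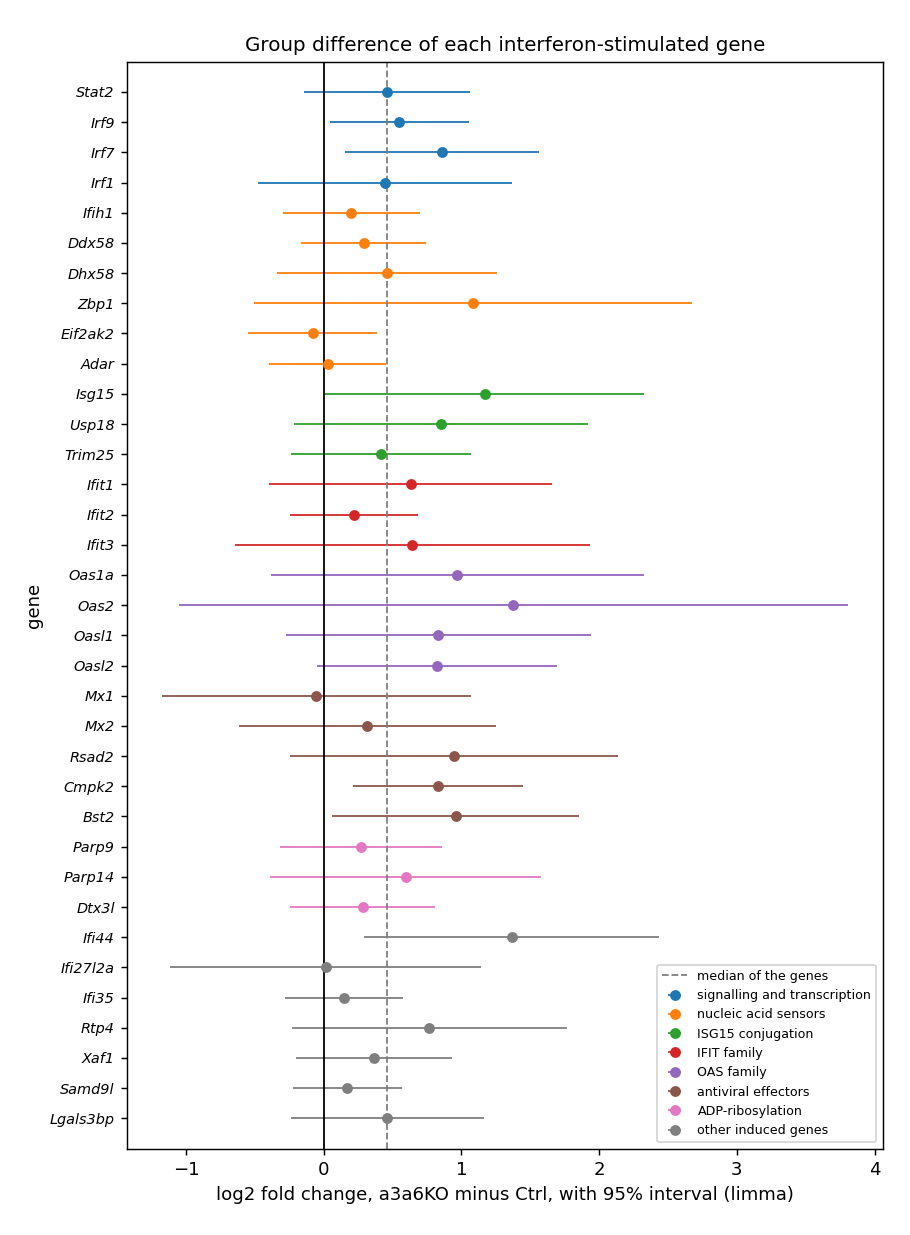
Points are log2 fold changes (a3a6KO minus Ctrl, log2 of value + 1) of the 35 genes with 95% intervals from limma over 4 Ctrl and 3 a3a6KO libraries, coloured by role, and the dashed line is their median of 0.46. The points of 33 genes lie above 0, and the intervals of 6 exclude it before adjustment.

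The groups overlapped in most of these genes. Every a3a6KO library lay above every Ctrl library in 2 of the 35, Cmpk2 and Bst2, against 4.0% of all genes tested. In no gene of the list did every a3a6KO library lie below every Ctrl library, against 3.51% of all genes. The SD among controls, on the log2 scale, had a median of 0.66 over the 35 genes and of 0.30 over all genes tested. Among a3a6KO libraries these medians were 0.40 and 0.32.

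The order of the libraries was shared by much of the list. Ctrl replicate 1 was the lowest of the 7 libraries in 29 of the 35 genes, against 18.5% of all genes tested, and it lay below every a3a6KO library in 33, against 28.2% of all genes. Ctrl replicate 2 was the highest control in 29 of the 35, against 20.2% of all genes, and the highest of all libraries in 11, against 10.4%. The highest library was a3a6KO replicate 1 in 17 genes, against 11.6% of all genes, and a3a6KO replicate 3 in 6, against 21.7%. The mean of the 35 log2 values was 6.98, 8.40, 7.55 and 7.94 in Ctrl replicates 1 to 4 and 8.61, 8.06 and 8.17 in a3a6KO replicates 1 to 3. These gave 7.72 ± 0.60 (SD, n = 4) and 8.28 ± 0.29 (SD, n = 3), a difference smaller than the SD of the controls. Ctrl replicate 2 lay above a3a6KO replicates 2 and 3, so the means of the groups overlapped. With Ctrl replicate 2 left out, the median log2 fold change of the 35 genes was 0.70, and 18 of them had an unadjusted p under 0.05, with 0 past the adjusted threshold, while 4.49% of all genes had such a p in that fit. Without a3a6KO replicate 1 the median was 0.37 and 0 of the 35 had an unadjusted p under 0.05, against 6.1% of all genes. Without Ctrl replicate 1 the median was 0.34, and 32 of the 35 were above 0. Of the 31 genes whose sign did not turn under any alternative, the fold change became more than 1.5 times smaller in 21 without Ctrl replicate 1, in 13 without a3a6KO replicate 1, in 7 without a3a6KO replicate 3 and in 4 without Ctrl replicate 3. It became more than 1.5 times larger in 10 without Ctrl replicate 2, in 5 without a3a6KO replicate 2 and in 3 without a3a6KO replicate 3. Irf7, Irf9, Oasl2, Cmpk2 and Ifi44 moved by less than this with any 1 library left out.

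**Figure D2:**
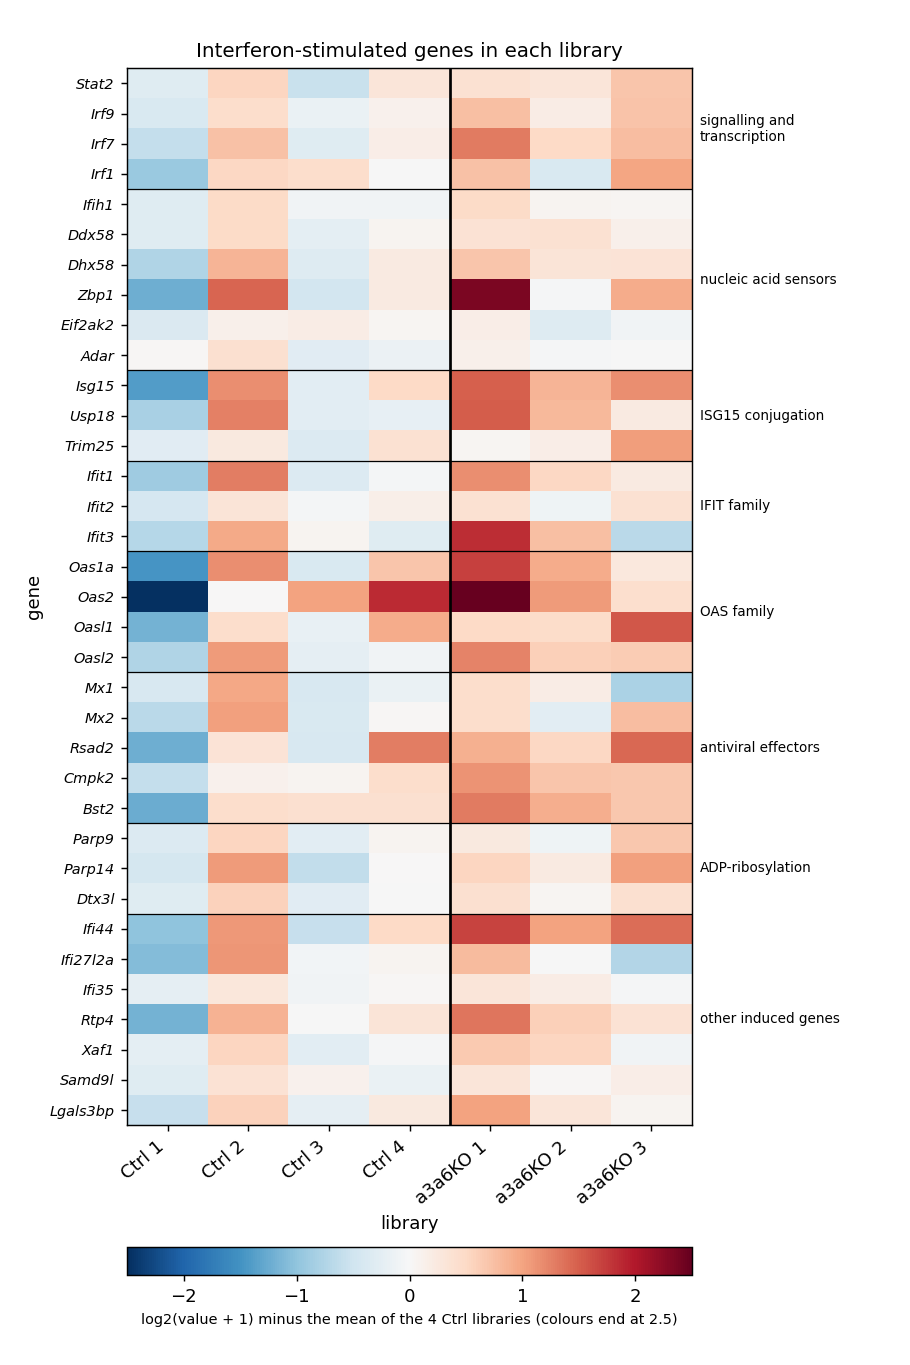
Each cell is the log2(value + 1) of a gene (rows, grouped by role) in a library (columns), minus its mean in the 4 Ctrl libraries, and colours end at 2.5 in either direction. Ctrl 1 is the lowest library in 29 of 35 rows, Ctrl 2 is the highest control in 29, and a3a6KO 1 is the highest library in 17.

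The transcription factors of the interferon response had fold changes above 0 in 4 of 4 genes. In limma 2 of them were higher at an unadjusted p under 0.05, as were 3.55% of all genes tested. Irf7, the factor that amplifies interferon production and is itself induced by it (identifier GSMG0036860, chromosome 7, 141262706 to 141266424, mm10), had normalised counts of 527, 1310, 640 and 890 in the controls, against 1944, 1126 and 1349 in the mutants. The highest control lay above a3a6KO replicate 2, so the groups overlapped. The log2 fold change was 0.86 (SE 0.31, 95% interval 0.15 to 1.56, limma adjusted p = 0.713). Irf9, the DNA-binding subunit of ISGF3 (GSMG0011604, chromosome 14, 55603985 to 55610030), had 734, 1309, 857 and 1030 in the controls, against 1620, 1085 and 1573 in the mutants. Again 1 control, Ctrl replicate 2, stood among the mutant libraries. Its log2 fold change was 0.55 (SE 0.22, limma adjusted p = 0.750). Stat2, a subunit of ISGF3, had a fold change of 0.46 (SE 0.27).

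Irf1, a factor induced by both interferon types and by other stimuli, was the most abundant transcript of the list per kilobase of exon, at 1156 normalised counts per kb in Ctrl and 1584 in a3a6KO. Its counts (GSMG0005191, chromosome 11, 53770014 to 53778374) were 2244, 6096, 5803 and 4238 in the controls, against 7075, 3292 and 8522 in the mutants. The mutant libraries held both the highest values and the second lowest. The fold change of 0.45 (SE 0.41) dropped to 0.14 with Ctrl replicate 1 left out, and it was 0.86 with a3a6KO replicate 2 left out.

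Cytosolic sensors of viral nucleic acid, listed together with the RNA-editing gene Adar, mostly showed small differences. The median log2 fold change over these 6 genes was 0.25, and 0 of them had an unadjusted p under 0.05 in limma. Zbp1, a receptor for Z-form nucleic acid that can trigger necroptosis (GSMG0023966, chromosome 2, 173206612 to 173218922), had 12.1, 83.2, 21.1 and 34.8 in the controls, against 155, 29.0 and 56.9 in the mutants. Values were low and spread widely within both groups, and the fold change of 1.08 had an SE of 0.70. It was 0.45 without a3a6KO replicate 1. Ddx58, which encodes the RNA sensor RIG-I (GSMG0027679, chromosome 4, 40203777 to 40239827), had 463, 793, 476 and 594 in the controls, against 732, 740 and 621 in the mutants. Its mutant values lay close together, below Ctrl replicate 2 and above the other controls, with a fold change of 0.29 (SE 0.20). The sensors Ifih1 (MDA5) and Dhx58 (LGP2) had 0.20 (SE 0.22) and 0.46 (SE 0.35).

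Eif2ak2 and Adar, which encode the RNA-activated kinase PKR and an RNA-editing deaminase, had the smallest differences of the 6 genes in this list. The Adar counts (GSMG0024553, chromosome 3, 89715022 to 89753454) were 252, 328, 204 and 225 in the controls, against 271, 244 and 246 in the mutants. All 3 mutant values fell inside the control range, and the fold change was 0.03 (SE 0.19, 95% interval -0.39 to 0.45), with a sign that turned in several settings. Eif2ak2 had -0.08 (SE 0.21). The Adar model overlaps that of Il6ra on the other strand over 38433 bases, and the counting is not stated to use strand, so their reads may not be separable.

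ISG15 is a ubiquitin-like protein that is attached to other proteins during the interferon response, and genes of its conjugation were higher on average in 3 of 3. Isg15 (GSMG0028769, chromosome 4, 156199424 to 156200818) had 108, 640, 240 and 402 in the controls, against 809, 517 and 641 in the mutants. Controls spanned a 5.90-fold range and mutants a 1.57-fold range, with Ctrl replicate 2 inside the mutant range. The log2 fold change was 1.17 (SE 0.51, 95% interval 0.01 to 2.33, limma adjusted p = 0.785), and 0.70 without Ctrl replicate 1. Usp18, the protease that removes ISG15 and also restrains the receptor (GSMG0032428, chromosome 6, 121245904 to 121270917), had 162, 682, 235 and 247 in the controls, against 811, 496 and 331 in the mutants. Ctrl replicate 2 stood far above the other controls and exceeded 2 of the mutant libraries. Its fold change was 0.85 (SE 0.47). Trim25, a ligase that activates RIG-I and can join ISG15 to targets, had 0.42 (SE 0.29), and 0.11 without a3a6KO replicate 3, the library in which it was highest at 375.

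The IFIT proteins bind viral RNA, and their genes lie in a cluster on chromosome 19, with Ifit2, Ifit3 and Ifit1 in this order and 6992 bases between the first pair. Ifit1 (GSMG0019623, 34640879 to 34650009) had 343, 1542, 504 and 611 in the controls, against 1422, 905 and 742 in the mutants. The highest value of all was that of Ctrl replicate 2, and the fold change was 0.63 (SE 0.45). It was 0.34 without Ctrl replicate 1 and 1.06 without Ctrl replicate 2. Ifit3 (GSMG0019620, 34583527 to 34589036) had 119, 381, 206 and 158 in the controls, against 706, 332 and 123 in the mutants, so the mutants held both the highest value and nearly the lowest. Its fold change of 0.64 (SE 0.57) dropped to 0.04 with a3a6KO replicate 1 left out, and it was 1.30 with replicate 3 left out. Ifit3 has a near-identical copy, Ifit3b, and reads can be split between them. Ifit2 varied less, with 541 to 912 in Ctrl, 680 to 954 in a3a6KO and a fold change of 0.22 (SE 0.20).

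The OAS family, which includes enzymes that make an activator of RNase L, had fold changes above 0 in 4 of 4 genes, with a median of 0.90. Oasl2 (GSMG0029663, chromosome 5, 114896934 to 114912245) had 111, 395, 161 and 177 in the controls, against 446, 286 and 292 in the mutants. Ctrl replicate 2 lay between the mutant values, and the fold change was 0.82 (SE 0.39). Oasl1, which restrains the translation of Irf7 (GSMG0029665, chromosome 5, 114923239 to 114937915), had 34.1, 107, 68.9 and 151 in the controls, against 112, 108 and 231 in the mutants. Here Ctrl replicate 4, not replicate 2, was the highest control, and the fold change was 0.83 (SE 0.49). It was 0.44 if Ctrl replicate 1 was omitted and 0.48 if a3a6KO replicate 3 was. Oas1a had 0.97 (SE 0.60), and 0.48 without Ctrl replicate 1. Oas2 was listed at 0 in Ctrl replicate 1, where 3 reads would be worth 3.01. It had 6.46, 13.8 and 25.7 in Ctrl replicates 2 to 4, against 44.7, 14.5 and 8.90 in the mutants, and its fitted fold change of 1.38 rests on low values and was 0.42 without Ctrl replicate 1. Oas1a has several close copies, among which reads can be split.

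Both genes whose groups did not overlap, Cmpk2 and Bst2, belong to the antiviral effectors, but 2 of 35 is close to the 4.0% of all genes. Cmpk2, a mitochondrial nucleotide kinase (GSMG0007909, chromosome 12, 26469204 to 26479835), had 47.2, 77.6, 75.3 and 97.6 in the controls, against 157, 117 and 116 in the mutants. Its lowest mutant lay above its highest control, with a fold change of 0.83 (SE 0.27, 95% interval 0.21 to 1.45, limma adjusted p = 0.676), the smallest p of the 35. Its neighbour Rsad2, which encodes viperin, lies 12751 bases away and is transcribed in the opposite direction. Rsad2 had 33.1, 99.4, 59.7 and 192 in the controls, against 146, 113 and 215 in the mutants. Ctrl replicate 4 exceeded 2 mutants, and the fold change was 0.95 (SE 0.53).

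Bst2 encodes tetherin, which holds budding virus at the cell surface (GSMG0038582, chromosome 8, 71534258 to 71537438). It had 232, 744, 722 and 719 in the controls, against 1339, 1032 and 870 in the mutants. Ctrl replicates 2 to 4 lay close together and below all mutants, while Ctrl replicate 1 stood far below them. The fold change was 0.96 (SE 0.40, 95% interval 0.06 to 1.86, limma adjusted p = 0.760), and it was 0.55 without Ctrl replicate 1. Per kilobase of exon, Bst2 was the second most abundant gene of the list, at 669 normalised counts per kb in Ctrl and 1197 in a3a6KO. The Mx genes encode dynamin-like GTPases, and in many inbred strains of mice they carry disabling mutations. Mx1 was near the lower limit, at 11.9 to 32.3 in Ctrl and 8.90 to 22.4 in a3a6KO (-0.05, SE 0.50), and Mx2 had 0.32 (SE 0.41).

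Parp9, Parp14 and Dtx3l act in ADP-ribosylation, and PARP9 forms a complex with the ubiquitin ligase DTX3L. All 3 lie on chromosome 16, where the Parp9 and Dtx3l models are transcribed in opposite directions and overlap by 558 bases. Dtx3l (GSMG0015704, 35926512 to 35939027) had 229, 422, 230 and 279 in the controls, against 370, 291 and 370 in the mutants. Ctrl replicate 2 held the highest value, and the fold change was 0.28 (SE 0.23). Parp14 (GSMG0015703, 35832878 to 35871500) had 23.1, 67.1, 20.2 and 31.8 in the controls, against 46.4, 36.9 and 65.8 in the mutants. Its groups overlapped through the same control, with a fold change of 0.59 (SE 0.43). Parp9 had 0.27 (SE 0.26), and 0.07 without a3a6KO replicate 3. The Parp9 model also overlaps that of Gm15564 on the other strand over 5869 bases. Gm15564 was at 588 to 1075 in Ctrl and 751 to 940 in a3a6KO, so a part of either count may belong to the other.

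The remaining induced genes ranged from 0.01 to 1.36. Ifi44, a cytoplasmic protein of the interferon response (GSMG0026188, chromosome 3, 151730916 to 151749959), had 35.1, 153, 47.7 and 102 in the controls, against 234, 145 and 190 in the mutants. Only Ctrl replicate 2 reached the mutant range, just above a3a6KO replicate 2. The log2 fold change was 1.36 (SE 0.47, 95% interval 0.30 to 2.43, limma adjusted p = 0.691), and leaving out 1 library moved it between 1.03 and 1.72. Rtp4, a chaperone of membrane receptors (GSMG0014818, chromosome 16, 23609919 to 23614222), had 252, 1052, 576 and 722 in the controls, against 1466, 874 and 737 in the mutants, with 0.77 (SE 0.44), and 0.37 without Ctrl replicate 1. Samd9l, an antiviral and growth-restraining factor (GSMG0032686, chromosome 6, 3372260 to 3399573), had 929, 1466, 1240 and 1022 in the controls, against 1422, 1171 and 1293 in the mutants. All 3 mutant values of Samd9l lay inside the control range (0.17, SE 0.17).

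Lgals3bp, a secreted scavenger glycoprotein, had 0.46 (SE 0.31), Xaf1, a pro-apoptotic factor, 0.37 (SE 0.25), and Ifi35 0.15 (SE 0.19). Ifi27l2a had close averages in the groups, at 166 to 755 in Ctrl and 210 to 613 in a3a6KO (0.01, SE 0.50). Its model lies across that of Ifi27 on the other strand, with 6057 bases in common. Ifi27 was the larger of the pair, at 3170 to 5224 in Ctrl and 5330 to 6376 in a3a6KO, so a part of either count may belong to the other.

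How closely a gene followed the others was described by the correlation of its log2 values with the mean of the other genes over the 7 libraries, which share their scaling. The median Pearson correlation was 0.87. After the group means were removed it was 0.85. Isg15 followed the others most closely (Pearson 0.98, Spearman 0.96, and 0.96 by Pearson without the 2 libraries farthest from the median). Adar had the lowest Pearson correlation over the 7 libraries, 0.49, close to that of Trim25, also 0.49. By Spearman Adar had 0.61, above Eif2ak2 (0.36), Oas2 (0.39) and Trim25 (0.43). Without the 2 farthest libraries Adar had 0.91, while Oas2 had -0.63 and Eif2ak2 -0.30. No p is given, because the genes were chosen as a set.

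Outside the list, 10990 named genes with a mean of at least 50 were ranked by the same measure, the Pearson correlation with the mean of the 35. Of the 20 highest, 8 belonged to the interferon lists, which held 111 of the 10990. These 8 were Gbp3 (0.95), Gbp7 (0.95), Gbp6 (0.94), Gbp9 (0.92), Ube2l6 (0.94), Cxcl9 (0.92), Sp100 (0.90) and Ifitm3 (0.89). Gbp genes encode large GTPases of cell-intrinsic immunity, Ube2l6 the conjugating enzyme for ISG15, and Ifitm3 a membrane protein that blocks viral entry. The other 12 were Slc17a7 (listed in a combined feature with a microRNA gene), Epha7, Ptpn14, Ptchd4, Pcyt1b, Pigf, Rusc2, Preb, Fzd3, Zfp608, Ttl and Emc7, with 0.89 to 0.96. The median over all ranked genes was -0.03.

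Transcripts of the interferons themselves were scarce. Of 20 type I and III interferon genes in the table, 17 had 0 reads in every library, among them all 13 Ifna genes listed. A count of 0 allows up to 3 reads, which are worth 2.27 to 5.34 normalised counts depending on the library. Of the counts from 1 to 20, 61.8% to 63.8% were even, so 1 fragment may often stand as 2 reads. The limit for a count of 0 would then be higher, and the few reads below would be fewer fragments. Ifnb1, the interferon most cells make first, had 0, 0, 10 and 8 reads in Ctrl and 0, 4 and 6 in a3a6KO. The libraries without an Ifnb1 read, Ctrl replicates 1 and 2 and a3a6KO replicate 1, included both the lowest ISG mean and the highest. Ifne, an interferon of epithelia, had 23 reads in all, and Ifng, the type II interferon of lymphocytes, had 2, both in Ctrl replicate 3. Interferon made elsewhere in the gland or body would not be seen in these cells.

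Transcripts of both chains of the type I receptor were found in every library. Ifnar2 averaged 901 ± 179 in the 4 controls (SD) and 980 ± 80.0 in the 3 mutants (SD), with a fold change of 0.14 (SE 0.16). Ifnar1, added here because it is the other receptor chain, had means of 628 ± 20.4 and 681 ± 107 in the same libraries. Of 6 receptor genes 5 were above 0, and Ifngr2, a chain of the receptor for interferon gamma, had 0.50 (SE 0.15, limma adjusted p = 0.634). It was the 1 gene of the 6 with every a3a6KO library above every Ctrl library, against 4.0% of all genes tested. Of 11 genes in a list of inhibitors, which also held the interferon-stimulated gene Isg20, 7 were above 0, with a median of 0.14. Socs3, an inhibitor induced by many cytokines, was the most abundant of them and had 0.04 (SE 0.31). Of 14 genes of virus and nucleic acid sensing 6 were above 0, with a median of -0.06. None of these pathway genes passed in limma or DESeq2.

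A wider list of 52 other tested ISGs had 38 above 0 and a median of 0.24, with 0 past the threshold in limma. At an unadjusted p under 0.05 there were 9, all higher in a3a6KO. Of all genes tested, 49.5% were above 0, and 3.55% were higher at such a p in limma. Every a3a6KO library lay above every Ctrl library in 9 of the 52, against 4.0% of all genes tested. Ube2l6, which charges ISG15 for conjugation, had 151, 345, 260 and 275 in the controls, against 476, 396 and 374 in the mutants. Its groups did not overlap, with a fold change of 0.74 (SE 0.26). The most abundant, Ly6e and Ifitm3, had 0.01 (SE 0.15) and 0.44 (SE 0.18). A list of genes that lean to interferon gamma had 15 of 15 tested genes above 0 and a median of 0.58. It had 2 DESeq2 calls, Tgtp2 and Iigp1, against 0.58% of all genes. In lists of related immune genes, which share members with it, the IRG and GBP GTPases had 13 of 13 tested genes above 0 and a median of 0.70, and MHC class I presentation had 15 of 15 and a median of 0.32. DESeq2 called 4 of the 13 GTPases, Tgtp2, Iigp1, Gbp4 and Gm12250, and none of the 35 ISGs, against 0.58% of all genes. In limma none of either passed, with 5 of the 13 at an unadjusted p under 0.05, against 6.32% of all genes. Gm12250 is also in the wider list, as its single DESeq2 call. The difference between these lists was not tested.

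**Figure D3:**
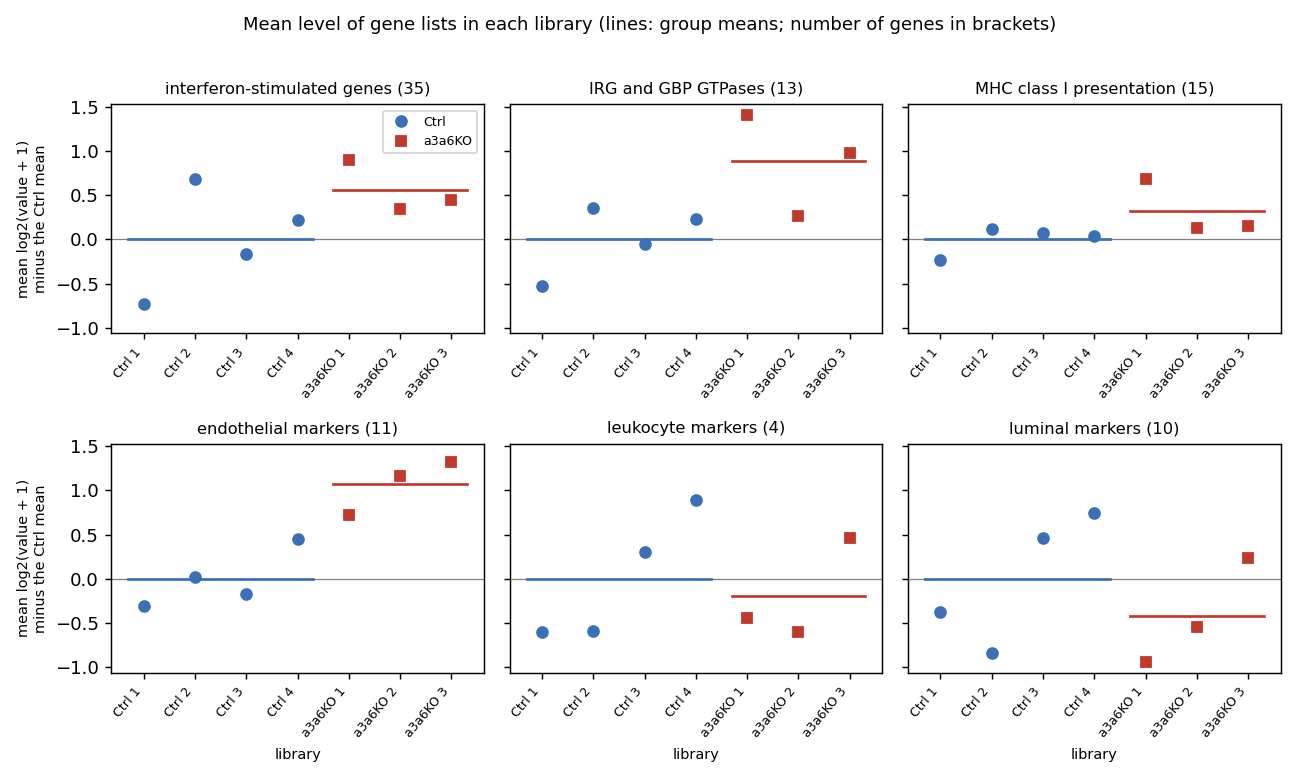
Points are the mean log2(value + 1) of the tested genes of a list in each library, minus the mean of the 4 Ctrl libraries, and lines are group means. The 35 interferon-stimulated genes lie at 8.40 in Ctrl 2 and at 8.06 to 8.61 in a3a6KO before subtraction. The mean of the 11 endothelial markers is higher in each a3a6KO library than in any Ctrl library. Singly, 8 of the 11 had no overlap of the groups with a3a6KO higher, against 4.0% of all genes tested.

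The sorted cells carried their defining markers at high levels, with Krt5 at 23601 to 30453 and Krt14 at 35785 to 79196 over the 7 libraries. Of 12 basal markers 4 were above 0 and 8 below, with a median log2 fold change of -0.07. Every a3a6KO library lay below every Ctrl library in 1 of the 12, against 3.51% of all genes tested. The basal markers summed to 875693 to 1177836 in Ctrl and 978331 to 1092198 in a3a6KO. Transcripts of other cells were present too. Endothelial markers were higher on average in a3a6KO in 11 of 11 genes, with summed values of 4374 to 7538 in Ctrl and 9562 to 13830 in a3a6KO. In the order of the libraries the sums were 4374, 5631, 4906 and 7538 in Ctrl replicates 1 to 4, and 9562, 12409 and 13830 in a3a6KO replicates 1 to 3, beside ISG means of 6.98, 8.40, 7.55 and 7.94, and of 8.61, 8.06 and 8.17. Ctrl replicate 1 was lowest in both, and the order of the other libraries differed. DESeq2 called 7 of the 11 endothelial markers, against 0.58% of all genes. The part of endothelial RNA in the group difference was not tested. Leukocyte markers (4 of 5 tested, 1 above 0) summed to 185 to 499 in Ctrl and 193 to 455 in a3a6KO. Macrophage and dendritic cell markers (8 of 10 tested, 4 above 0) summed to 1014 to 3958 in Ctrl and 1518 to 4464 in a3a6KO. Markers of T and NK cells (0 of 7 tested) summed to 2.01 to 6.46 in Ctrl and 10.7 to 14.1 in a3a6KO, with Cd8a at 0 in every library. These sums are a few reads, since 3 reads are worth 2.27 to 5.34 depending on the library. Pericyte markers (7 of 7) and the 3 tested erythroid genes were above 0 too, and erythroid sums were 25.1 to 359 in Ctrl and 612 to 787 in a3a6KO. Fibroblast markers (7 of 8 tested, 6 above 0) summed to 16766 to 27687 in Ctrl and 21097 to 32227 in a3a6KO. The part of these cells in the group difference was not tested.

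Plasmacytoid dendritic cells are a main source of type I interferon. Their defining marker Siglech was at 0 to 12.9 in Ctrl and 0 to 1.66 in a3a6KO. The other 5 genes of the list were all tested and above 0, with a largest fold change of 1.52. In limma 2 of them had an unadjusted p under 0.05, against 6.32% of all genes. Which cells these transcripts came from was not tested. Luminal markers, among them milk protein genes, summed to 111048 to 661315 in Ctrl and 83574 to 287937 in a3a6KO, and 2 of 10 were above 0. The libraries with the highest ISG means, a3a6KO replicate 1 and Ctrl replicate 2, had the lowest luminal sums, 83574 and 111048. Ctrl replicates 3 and 4 had the highest luminal sums, 508125 and 661315, and after Ctrl replicate 1, with a sum of 161933, the lowest ISG means. The part of luminal RNA in these differences was not tested.

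**Figure D4:**
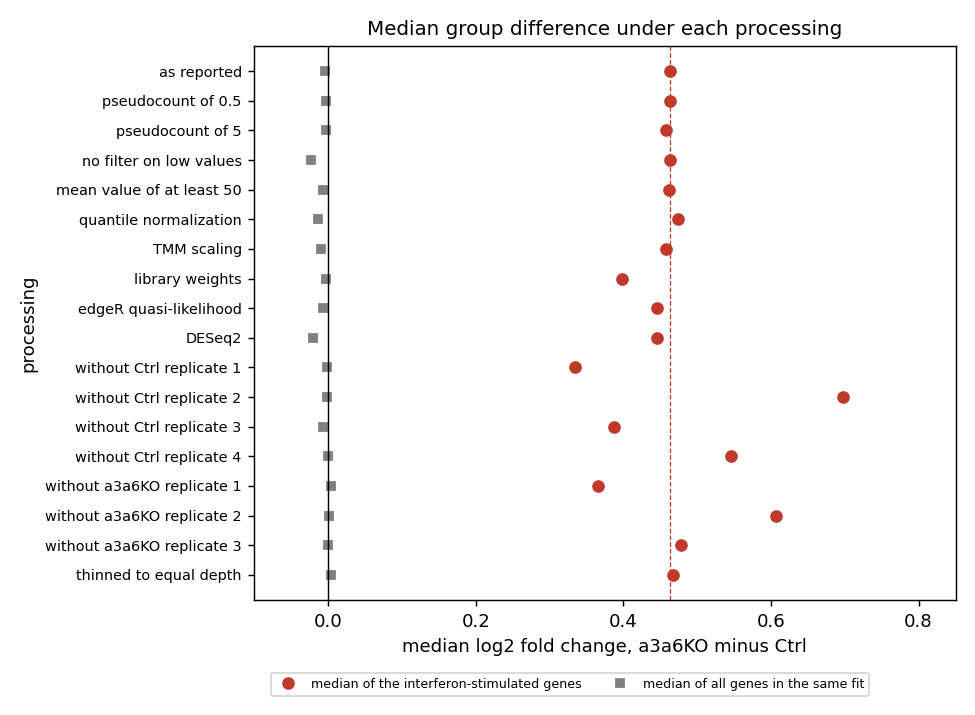
Red points are the median log2 fold change (a3a6KO minus Ctrl) of the 35 genes under each processing, and grey squares the median of all genes in the same fit. The red points stay between 0.34 and 0.70, and both ends come from leaving out a control library, replicate 1 and replicate 2.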

How the data were processed

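RNA libraries from 4 Ctrl and 3 a3a6KO samples of sorted basal cells were made by the SMARTer v4 method, according to the labels. The deposited values are a signal, reads per gene that the authors scaled by DESeq2 size factors, per the title of the file. Build mm10, STAR 2.4.0, Picard, SAMtools and FastQC appear in the submitters' processing notes without roles. The sources used here do not give the read counter or whether strand was used. In each library 100% of values came out as whole multiples of what 1 read is worth (tolerance 0.01 read), which gave the reads back. Among low counts 61.8% to 63.8% were even, so many fragments may have been counted more than once. The count models and the thinning took the recovered reads as they were.

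Groups came from the genotype label. The labels give no batch or pairing, and replicate numbers follow the order of deposition. The spread between libraries, on which p-values rest, is that of the deposited biological replicates. Values were tested as log2(value + 1) with limma 3.58.1 (R 4.3.3, two-sided, moderated with a trend). Benjamini-Hochberg adjustment covered the 16889 genes that reached 10 in 3 or more libraries, at a threshold of 0.05. The scale understates changes of low genes. Alternatives were other pseudocounts, filters, scalings and library weights, edgeR 4.0.16 and DESeq2 1.42.0 on recovered reads, leaving out each library, and, added after seeing the data, thinning to equal depth. Scripts were tested on simulated counts. Levels per kb use the union of exons in GENCODE M21.

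The members and lists were chosen with earlier results of these data known, so no list was tested and no adjustment was made over a list alone. Values in every library are given for up to 2 genes of each role with the smallest p, the 5 with the highest mean, and those with the highest and lowest Pearson correlation with the others. Oas2, Rsad2, Ifnar1, Itga3, Itga6 and the genes of overlapping models were added after their values were seen. In the other lists up to 3 genes by p and up to 3 by level could be named. A gene of the pathway is not reported here.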

Additional observations from a re-analysis of the deposited data

Results flagged for a closer look

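In 3 of the 35 genes 1 control stood far from the other 3, by Dixon's test at the 95% level, which chance alone gives in about 1 group in 20. The mean of the 35 genes was tested too and showed no such library. Usp18 had 682 in Ctrl replicate 2, against 162 to 247 in the other controls. For Mx1 the same library had 32.3, against 11.9 to 14.4. Bst2 had 232 in Ctrl replicate 1, against 719 to 744 in the others, and this library is the lowest in most of the list. What set these libraries apart was not tested.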

How the results depend on the processing

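Over 17 alternatives, 31 of the 35 genes kept the sign of their fold change, and 0 of 592 single-gene values passed the adjusted threshold. The number of genes above 0 ranged from 31 to 34, and their median was lowest with Ctrl replicate 1 left out (0.34) and highest with Ctrl replicate 2 left out (0.70). The other single-library values of the median were 0.39 without Ctrl replicate 3, 0.55 without Ctrl replicate 4, and 0.37, 0.61 and 0.48 without a3a6KO replicates 1 to 3. Library weights gave 0.40. Over all genes DESeq2 called 74, of which 55 were higher in a3a6KO, where limma and edgeR called 0, and limma held 1068 genes and edgeR 1031 at an unadjusted p under 0.05. The cause of this difference was not tested.

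The sign turned in 4 genes whose fold change was close to 0. Leaving out 1 library moved Eif2ak2 between -0.21 and 0.040, Adar between -0.066 and 0.16, Mx1 between -0.31 and 0.31, and Ifi27l2a between -0.38 and 0.39. Adar had -0.022 with library weights, Mx1 0.012 after thinning, and Ifi27l2a -0.052 with edgeR and -0.054 with DESeq2. No paired analysis was possible because the labels give no replicate numbers that are shared by the groups. With 4 and 3 libraries the intervals were wide, and that of Isg15 spanned 0.01 to 2.33.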
